A study of Homo sapiens with 22 samples.

Results

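The AP-1 subunit genes examined were FOS, FOSB, FOSL1 and FOSL2 of the Fos family, JUN, JUNB and JUND of the Jun family, and ATF3 and MAFF of related families. They were chosen by symbol, and all 9 were found among the 20668 gene symbols measured by RNA-seq in MDA-MB-231, a human triple-negative breast cancer (TNBC) cell line. After 3 days in medium without phenol red, its serum (5%) depleted of steroids with charcoal, cells were given vehicle, 100 nM dexamethasone (Dex) for 2 h or 4 h, or 10 μM compound A (CpdA) for 2 h or 4 h. Dex is a synthetic glucocorticoid that activates the glucocorticoid receptor (GR), and CpdA is a nonsteroidal analogue of a plant compound and a selective modulator of GR. Each of the 5 groups had 2 samples labelled as replicates, and the measurements come from 1 cell line without any GR-deficient control. The values deposited were RPKM, that is, reads on a gene scaled by transcript length and by the mapped reads of the sample, so levels of different genes can be set side by side per length.

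AP-1 is a dimeric transcription factor assembled from basic leucine zipper (bZIP) proteins. Jun proteins pair with one another or with Fos proteins, and Fos proteins need a Jun partner to bind DNA. ATF3 joins Jun proteins or pairs with itself and is known as a stress-induced factor, and MAFF is a small Maf protein that lacks an activation domain of its own. Several of these genes are immediate-early genes, switched on by growth factor, mitogen-activated protein kinase (MAPK) and stress signals without new protein synthesis. GR is known to restrain AP-1 activity, classically by protein contact, and FOSL1 is known as the prominent Fos protein of invasive, mesenchymal-like breast cancer lines.

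Most of the line's markers matched its label. VIM (vimentin) lay between 1267.5 and 1464.0 RPKM. ESR1 and PGR (oestrogen and progesterone receptors) never exceeded 0.00484 RPKM and CDH1 (E-cadherin) never exceeded 0.465 RPKM. ERBB2 (HER2), the other receptor gene of the triple-negative label, was not near 0 and lay between 15.94 and 21.61 RPKM. The size of the RPKM step that 1 read makes on short RNAs implied a depth of 1.00 to 1.21 relative to vehicle replicate 1, with the 2 vehicle samples the shallowest. Taken with transcript lengths, that step put FOS at an estimated 161 reads in its lowest sample and FOSL1 at 37724 in its highest. Each ligand had a marker gene far above its level in the other groups. TSC22D3, a direct glucocorticoid target, was at 302.3 to 315.3 RPKM with Dex against 8.22 to 12.4 RPKM in the vehicle and CpdA samples, and HSPA6, a heat-shock gene, was at 11.6 to 54.4 RPKM with CpdA against 0.302 to 0.457 RPKM elsewhere. Of the other glucocorticoid targets checked, PER1 rose with Dex by log2 fold changes of 4.40 and 4.45 at 2 h and 4 h. FKBP5 rose by 3.50 and 4.98. With CpdA the values at 2 h and 4 h were smaller, 0.44 and 0.27 for TSC22D3, 1.22 and 0.82 for PER1 and -0.10 and 0.28 for FKBP5. All but the FKBP5 value at CpdA 2 h passed the limma test (adjusted p under 0.05).

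The 2 vehicle samples differed from each other at the AP-1 genes, which bears on every comparison with vehicle. Replicate 2 was lower than replicate 1 for all 9 genes, by 0.11 for FOS to 1.21 for ATF3 on the log2(RPKM + 0.1) scale, the scale of every log2 value given here. A gap of more than 0.5 separated the vehicle samples at 5 of the 9 genes (FOSB, FOSL2, JUNB, ATF3 and MAFF) but at 3.36% of the 12713 genes tested, and no treated pair of replicates showed such a gap at any of the 9. Labels give the vehicle samples no time point, whereas the column headings of the deposited values name replicate 1 for 2 h and replicate 2 for 4 h. Time in vehicle and spread between samples cannot be told apart with 1 sample each. Values against each vehicle sample alone are therefore given beside the pooled ones. In those fits the lone vehicle sample is assumed to vary like the other groups. Their adjusted p-values thus leave out the spread between the vehicle samples.

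In vehicle-treated cells, FOSL1 was the most abundant AP-1 transcript, at 332.6 ± 74.2 RPKM (SD, n = 2), higher than 99.3% of the genes tested. JUND followed at 130.3 ± 13.2 RPKM and JUN at 64.9 ± 7.73 RPKM. FOSL2, JUNB and MAFF lay close together at 37.3 ± 14.2, 35.0 ± 14.01 and 33.4 ± 11.7 RPKM, with overlapping sample ranges. ATF3 came next at 9.31 ± 5.28 RPKM. The classical immediate-early genes FOSB and FOS were the lowest, at 2.26 ± 0.987 and 1.54 ± 0.0907 RPKM, and their ranges overlapped as well.

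**Figure D1:**
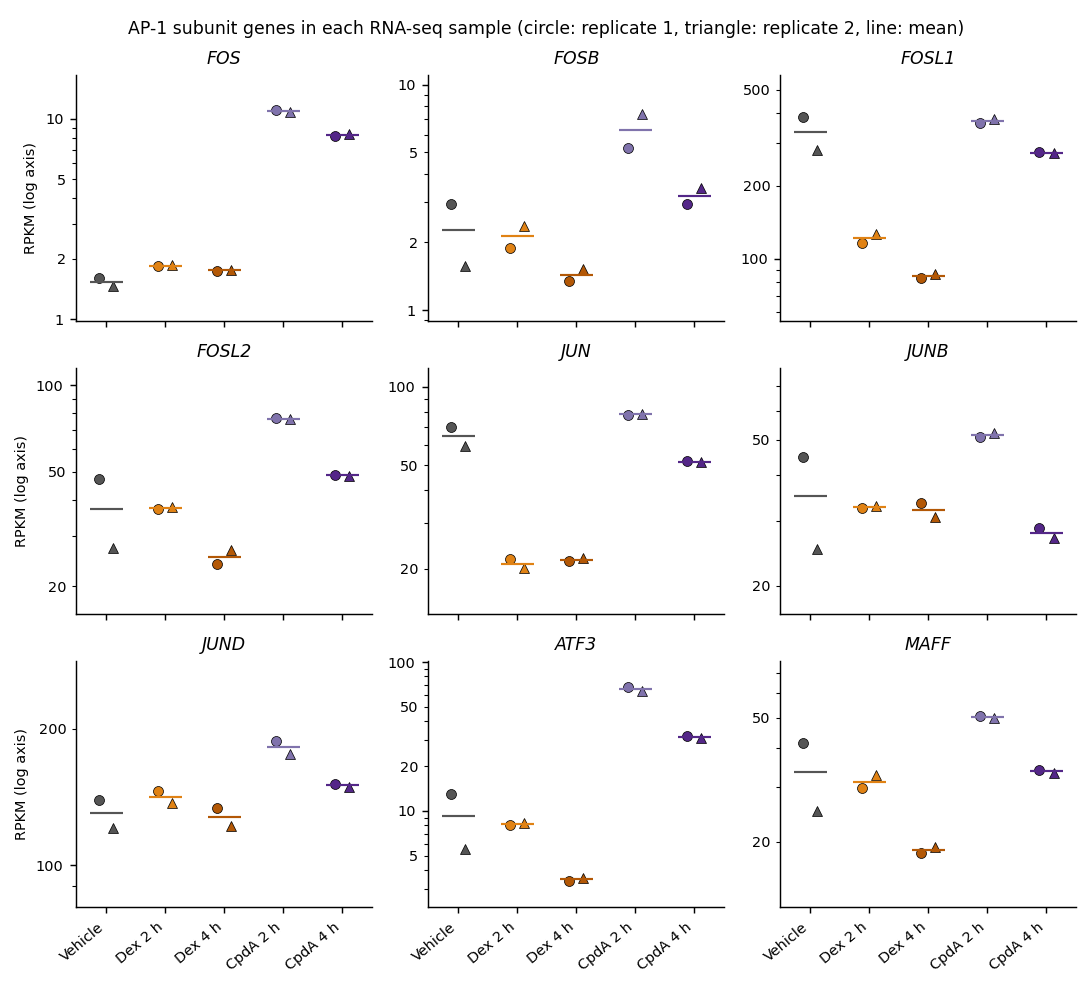
RPKM (log axis) of each of the 9 AP-1 genes in each of the 10 samples, with vehicle in grey, Dex in orange and CpdA in purple, circles for replicate 1, triangles for replicate 2 and a line at the mean of the group. FOSL1 and JUN sit low in all 4 Dex samples, FOS and ATF3 sit high in all 4 CpdA samples, and the vehicle samples lie far apart for FOSB, FOSL2, JUNB, ATF3 and MAFF.

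The order of levels changed with each ligand. After Dex, JUND took the first place at both times (141.4 RPKM at 2 h and 127.9 RPKM at 4 h), ahead of FOSL1 at 121.6 and 84.6 RPKM, with no overlap between their sample ranges. JUN dropped to the sixth place after 2 h of Dex and to the fifth after 4 h, behind FOSL2, JUNB and, at 2 h, MAFF. After CpdA, the first 4 places were the same as in vehicle (FOSL1, JUND, JUN, FOSL2). ATF3 rose from the seventh place to the fifth at CpdA 2 h and the sixth at CpdA 4 h, and FOS exceeded FOSB at both CpdA times, as it did at Dex 4 h.

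On the GRCh37 genome with GENCODE release 44 annotation, FOS (ENSG00000170345, 4 exons) lies at chr14:75745529-75748933 on the plus strand and FOSL1 (ENSG00000175592, 4 exons) at chr11:65659520-65668044 on the minus strand. JUN (ENSG00000177606) spans chr1:59242517-59249720 on the minus strand, with a canonical transcript of 1 exon and 3257 bases. ATF3 (ENSG00000162772) spans chr1:212738676-212794119 on the plus strand. The exon counts are those of canonical transcripts and the coordinates those of whole genes. The coordinates of the others are chr19:45971253-45978437 for FOSB, chr2:28615315-28640184 for FOSL2, chr19:12902300-12904129 for JUNB, chr19:18390504-18392432 for JUND and chr22:38596774-38612514 for MAFF. Coding genes on the opposite strand overlap FOSB (ERCC1), JUNB (HOOK2) and MAFF (PLA2G6), and whether reads were assigned by strand is not given in the sources used here.

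The 500 bases upstream of each gene's canonical start were searched on both strands for sites that AP-1 and its regulators are known to use. The core TGACGT of the cyclic AMP response element (CRE), bound by ATF and CREB proteins and by some Jun dimers, was present in 8 of the 9 windows, the exception being JUNB, and in 14.7% of 10972 windows of protein-coding genes tested. The share was 13.9% among the 6055 windows with at least 60% GC, the lowest GC content of the 9. The full palindrome TGACGTCA, which holds the core on each strand, was found at FOSB, JUND and MAFF and in 3.76% of all windows. The consensus AP-1 element TGACTCA was in none of the 9 and in 5.23% of all windows. JUN held the variant TGACATCA, known as its own autoregulatory element, which was in 1.87% of all windows. The CArG box, bound by serum response factor, was found at FOS and FOSB (2.24% of all windows), and the loose receptor half-site pair ACANNNTGT at FOS and FOSL1 (5.66% of all windows). These matches describe letters in a window and not occupied sites. FOSB, FOSL1 and JUN also hold CRE cores that are not printed below. Selected sites of the genes with the largest changes are shown 5′ to 3′ on the strand of the gene, with the match in capitals and 12 bases on either side.
FOS, CRE core, chr14:75745455-75745484, plus strand: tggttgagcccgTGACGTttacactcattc
FOS, CArG box, chr14:75745205-75745238, plus strand: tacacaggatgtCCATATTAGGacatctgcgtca
FOSB, CArG box, chr19:45970968-45971001, plus strand: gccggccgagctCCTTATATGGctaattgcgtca
ATF3, CRE core, chr1:212782003-212782032, plus strand: attaatagcattACGTCAgcctgggactgg
JUN, variant AP-1 element, chr1:59249767-59249798, minus strand: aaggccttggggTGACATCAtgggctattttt
FOSL1, ACANNNTGT, chr11:65668101-65668133, minus strand: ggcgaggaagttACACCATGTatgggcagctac
At ATF3 the match is the core read on the other strand. At FOS the ACANNNTGT match (323 to 315 bases upstream) ends directly before the CArG box (314 to 305 bases upstream), and its last bases are the lower-case ones that precede the capitals above.

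Dex lowered FOSL1 and JUN, the leading Fos gene and the classical Jun gene, at both times. FOSL1 measured 385 and 280.1 RPKM in the vehicle samples, 116 and 127 RPKM at Dex 2 h, and 82.9 and 86.2 RPKM at Dex 4 h. Every Dex sample was below both vehicle samples. In bulk RNA a lower level per cell and fewer expressing cells cannot be told apart. The log2 fold change was -1.43 (SE 0.119, limma adjusted p = 4.95e-05) at 2 h and -1.96 (SE 0.119, adjusted p = 2.94e-06) at 4 h, or 2.70-fold and 3.88-fold lower. JUN measured 70.4 and 59.4 RPKM with vehicle, 21.8 and 20.1 RPKM at Dex 2 h, and 21.3 and 21.9 RPKM at Dex 4 h. It was thus as low at 2 h as at 4 h, 3.09-fold and 2.98-fold below vehicle (log2 fold changes -1.63 and -1.57, SE 0.0727 each, adjusted p = 8.68e-07 and 4.83e-07). Both genes passed the test against either vehicle sample alone, FOSL1 with log2 fold changes from -1.20 to -2.19 and JUN from -1.45 to -1.75.

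ATF3 and MAFF were lower than vehicle after 4 h of Dex, and the size of the difference rested on the vehicle sample used. ATF3 measured 13.05 and 5.57 RPKM with vehicle, 8.01 and 8.31 RPKM at Dex 2 h, and 3.37 and 3.56 RPKM at Dex 4 h. Its Dex 2 h samples lay between the vehicle samples and its Dex 4 h samples below both. The log2 fold change at 4 h was -1.28 (SE 0.291, adjusted p = 0.0102), with -1.88 against vehicle replicate 1 alone and -0.67 against replicate 2 alone, each past the test. MAFF followed the same course, with 41.7 and 25.1 RPKM in vehicle, 29.7 and 32.7 RPKM at Dex 2 h, and 18.4 and 19.2 RPKM at Dex 4 h. At 4 h its log2 fold change was -0.78 (SE 0.179, adjusted p = 0.0106), and -1.14 or -0.42 against replicate 1 or 2 alone.

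Of the other genes, FOS was slightly higher with Dex, and most of the rest had Dex values between or close to those of the vehicle samples. FOS measured 1.60 and 1.47 RPKM with vehicle, 1.85 and 1.86 RPKM at Dex 2 h and 1.74 and 1.76 RPKM at Dex 4 h. The difference at 2 h was 1.19-fold (log2 fold change 0.26, SE 0.0653, adjusted p = 0.0380) and did not pass against vehicle replicate 1 alone (adjusted p = 0.173). That at 4 h had an adjusted p of 0.0701 and passed against replicate 2 alone (adjusted p = 0.0429). All 4 Dex samples lay above both vehicle samples. FOSL2 measured 47.3 and 27.2 RPKM with vehicle, 37.2 and 37.7 RPKM at Dex 2 h, and 24.0 and 26.7 RPKM at Dex 4 h. Against vehicle replicate 1 the 2 h value was lower by 0.34 on the log2 scale (adjusted p = 0.0153) and against replicate 2 higher by 0.46 (adjusted p = 0.00286), so no direction can be given. At 4 h its log2 fold change was -0.50 (adjusted p = 0.0898), with -0.90 against replicate 1 alone (adjusted p = 3.66e-05) and -0.10 against replicate 2 alone (adjusted p = 0.303). The same reversal, past the test both ways, held at Dex 2 h for JUNB (-0.46 and 0.38), ATF3 (-0.67 and 0.54) and MAFF (-0.42 and 0.31), and at Dex 4 h for JUNB (-0.48 and 0.35). JUNB measured 44.95 and 25.1 RPKM in vehicle and 30.8 to 33.6 RPKM over the 4 Dex samples, all of them between the vehicle values. JUND, at 120.9 and 139.6 RPKM in vehicle and 122 to 146 RPKM with Dex, had 95% intervals of -0.05 to 0.29 at 2 h and -0.19 to 0.14 at 4 h for its log2 fold change. FOSB measured 2.96 and 1.57 RPKM with vehicle, 1.88 and 2.37 RPKM at Dex 2 h, and 1.34 and 1.51 RPKM at Dex 4 h, and neither time passed the test (adjusted p = 0.969 and 0.154). Against vehicle replicate 1 alone FOSB was lower at 4 h by a log2 fold change of -1.004 (adjusted p = 0.0128), and against replicate 2 alone the value was -0.13 (adjusted p = 0.743).

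Counted over the family at an adjusted p under 0.05, Dex raised 1 and lowered 2 of the 9 genes at 2 h, when 4.49% of all genes tested rose and 5.82% fell (10.3% in all). At 4 h Dex raised 0 and lowered 4, when 9.26% of all genes tested rose and 18.2% fell (27.4% in all). With a change of over 2-fold as well, the counts were 2 (FOSL1 and JUN) and 3 (these and ATF3) of 9, when 2.01% and 3.78% of all genes tested passed. The number of calls depended on the vehicle sample. Against replicate 1 alone 0 genes rose and 6 fell at 2 h, and against replicate 2 alone 5 rose and 2 fell, when 7.83% and 11.8% of all genes tested were called in these fits. At 4 h the corresponding counts were 0 and 7 against replicate 1 and 2 and 4 against replicate 2, when 23.1% and 21.8% were called.

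**Figure D2:**
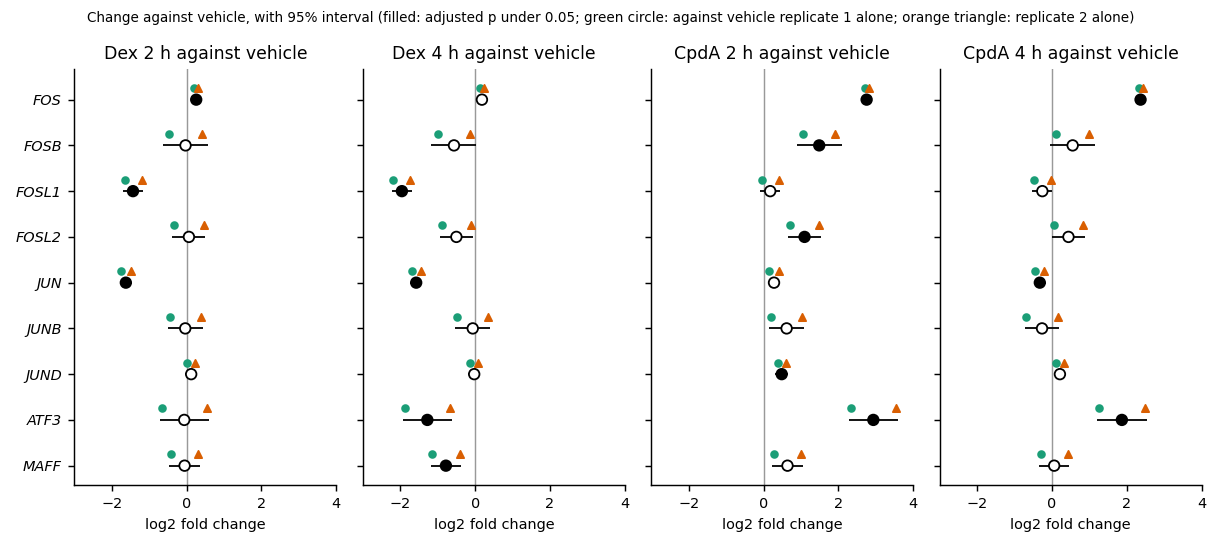
Log2 fold change of each AP-1 gene against vehicle in the 4 treatments, with large circles for the fit on both vehicle samples (filled where the adjusted p was under 0.05), bars for its 95% interval, small green circles for the fit against vehicle replicate 1 alone and orange triangles for replicate 2 alone. FOSL1 and JUN with Dex and FOS and ATF3 with CpdA lie on the same side of 0 by all 3 estimates. FOSB, FOSL2, JUNB, ATF3 and MAFF straddle 0 at Dex 2 h.

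CpdA raised FOS and ATF3, the immediate-early Fos gene and the stress-induced bZIP gene, at both times. FOS measured 1.60 and 1.47 RPKM with vehicle, 11.1 and 10.8 RPKM at CpdA 2 h, and 8.21 and 8.43 RPKM at CpdA 4 h. Every CpdA sample exceeded every vehicle and Dex sample. The log2 fold change was 2.75 (SE 0.0653, adjusted p = 1.71e-07) at 2 h and 2.36 (SE 0.0653, adjusted p = 1.27e-07) at 4 h, or 6.74-fold and 5.15-fold higher. FOS was the lowest of the 9 genes in vehicle and the eighth at both CpdA times, with 10.9 ± 0.210 RPKM (SD, n = 2) at CpdA 2 h. ATF3 rose from 13.05 and 5.57 RPKM with vehicle to 67.5 and 64.2 RPKM at CpdA 2 h, with 31.6 and 31.1 RPKM at CpdA 4 h. Its log2 fold change was 2.93 (SE 0.291, adjusted p = 6.74e-04) at 2 h and 1.86 (SE 0.291, adjusted p = 0.00224) at 4 h. Against a single vehicle sample the estimate for ATF3 ran from 2.33 to 3.54 at 2 h and from 1.26 to 2.47 at 4 h, always past the test.

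FOSB, FOSL2 and JUND rose at CpdA 2 h and did not pass the test at 4 h. FOSB, a relative of FOS with a similar immediate-early course, measured 5.24 and 7.38 RPKM at CpdA 2 h, above both vehicle values, and 2.95 and 3.48 RPKM at CpdA 4 h. At 2 h the log2 fold change was 1.49 (SE 0.265, adjusted p = 0.0127). FOSL2 measured 76.7 and 76.6 RPKM at CpdA 2 h and 48.9 and 48.4 RPKM at CpdA 4 h, all above the vehicle values of 47.3 and 27.2 RPKM. The 2 h log2 fold change of FOSL2 was 1.09 (SE 0.194, adjusted p = 0.0125), and at 4 h it was 0.44 (adjusted p = 0.152). At 4 h, FOSB and FOSL2 passed against vehicle replicate 2 alone (0.99 and 0.83) and not against replicate 1 alone (0.11 and 0.04). JUND, the most abundant of the Jun genes, reached 188 and 176 RPKM at CpdA 2 h (log2 fold change 0.48, SE 0.0739, adjusted p = 0.00616) and 151 and 149 RPKM at CpdA 4 h (0.21, adjusted p = 0.0789, and 0.31 with an adjusted p of 0.0252 against vehicle replicate 2 alone).

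FOSL1 and JUN, which Dex lowered, differed less from vehicle with CpdA. FOSL1 measured 365 and 377 RPKM at CpdA 2 h, within the range of the vehicle samples, and 276 and 273 RPKM at CpdA 4 h, just below it. The 95% interval of its log2 fold change was -0.09 to 0.45 at 2 h and -0.53 to 0.01 at 4 h. It passed the test as higher at 2 h against vehicle replicate 2 alone (0.41, adjusted p = 0.00727) and as lower at 4 h against replicate 1 alone (-0.49, adjusted p = 0.00189). JUN measured 78.1 and 78.8 RPKM at CpdA 2 h and 51.8 and 51.2 RPKM at CpdA 4 h, first above and then below both vehicle values. The 4 h difference passed the test (log2 fold change -0.33, SE 0.0727, adjusted p = 0.0127), and the 2 h difference did not (0.28, adjusted p = 0.0579, and 0.40 with an adjusted p of 0.00532 against vehicle replicate 2 alone). JUNB reached 50.8 and 52.3 RPKM at 2 h and returned to 28.7 and 27.1 RPKM at 4 h, and MAFF reached 50.7 and 50.2 RPKM and then 33.96 and 33.4 RPKM. Neither gene passed the test against the pooled vehicle samples at either time (adjusted p from 0.0726 for MAFF at 2 h to 0.865 for MAFF at 4 h). At 2 h both passed against vehicle replicate 2 alone (1.03 for JUNB and 1.00 for MAFF) and not against replicate 1 alone (0.20 and 0.27). At 4 h the sign turned with the vehicle sample used, with -0.69 against replicate 1 and 0.15 against replicate 2 for JUNB and -0.31 and 0.42 for MAFF, of which the 0.15 did not pass.

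In all, CpdA raised 5 of the 9 genes and lowered 0 at 2 h, when 1.89% of all genes tested rose and 4.29% fell (6.18% in all). At 4 h it raised 2 and lowered 1, when 6.76% of all genes tested rose and 13.8% fell (20.5% in all). Over 2-fold, the counts were 4 (FOS, FOSB, FOSL2 and ATF3) and 2 (FOS and ATF3) of 9, when 0.488% and 0.889% of all genes tested passed. The median log2 fold change of the 9 genes was 0.64 at 2 h and 0.21 at 4 h, compared with -0.02 and -0.04 over all genes tested. Against vehicle replicate 1 alone, CpdA 2 h again raised 5 genes, and against replicate 2 alone it raised all 9, when 3.14% and 9.38% of all genes tested were called in these fits. With either CpdA 2 h sample left out, FOS and ATF3 still passed the test and FOSL2 did not, though its log2 fold change stayed at 1.09. FOSB did not pass without replicate 2 (1.24), nor JUND without replicate 1 (0.435). Fewer of all genes tested were likewise called in these 2 fits. At 4 h, 2 rose and 4 fell against vehicle replicate 1 alone, and 6 rose and 1 fell against replicate 2 alone, when 17.1% and 15.1% were called. The heat-shock genes HSPA6 and HSPA1A moved together with FOS and ATF3 across the ligands (HSPA1A at 12.0 to 24.6 RPKM with CpdA and 1.45 to 1.68 RPKM elsewhere, reads shared with its near-identical copy HSPA1B being uncertain), though they were higher at 4 h than at 2 h and FOS and ATF3 were lower. Their part in the AP-1 changes was not tested.

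The ligands were then compared directly at each time, which uses no vehicle value in the difference. The doses differed, 100 nM for Dex and 10 μM for CpdA. At 2 h all 9 genes were lower with Dex than with CpdA without overlap of the samples, as 58.8% of all genes tested did not overlap in one direction or the other. Of the 9, 8 passed the test as lower, when 6.18% of all genes tested were called lower and 13.7% in all. The largest differences were those of ATF3 (log2 -2.996, SE 0.291, adjusted p = 1.12e-04), FOS (-2.50, SE 0.0653, adjusted p = 3.69e-08), JUN (-1.90, SE 0.0727, adjusted p = 2.56e-07) and FOSL1 (-1.61, SE 0.119, adjusted p = 1.86e-05). FOSB followed at -1.52, FOSL2 at -1.03, MAFF at -0.69 and JUND at -0.36. JUNB, at 32.6 and 33.0 RPKM with Dex and 50.8 and 52.3 RPKM with CpdA, differed by -0.65 with an interval of -1.11 to -0.19 and an adjusted p of 0.0707.

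At 4 h, 8 of the 9 genes were again lower with Dex and passed the test, when 18% of all genes tested were called lower and 33.4% in all. ATF3 differed by -3.14 (SE 0.291, adjusted p = 4.00e-05), or 8.83-fold, FOS by -2.18 (SE 0.0653, adjusted p = 3.06e-08), FOSL1 by -1.70 and JUN by -1.25. JUNB was the exception, at 33.6 and 30.8 RPKM with Dex and 28.7 and 27.1 RPKM with CpdA (0.20, interval -0.26 to 0.67, adjusted p = 0.489). Over 2-fold, 6 genes at 2 h and 5 at 4 h were lower with Dex, when 2.3% and 4.34% of all genes tested passed in either direction. The spread that the test uses includes the gap between the vehicle samples. In a fit on the 8 treated samples alone, all 9 genes were lower with Dex at 2 h, JUNB with an adjusted p of 9.05e-05, and at 4 h 8 were lower and JUNB was higher (adjusted p = 0.0177), when 14.6% and 34.8% of all genes tested were called in that fit.

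**Figure D3:**
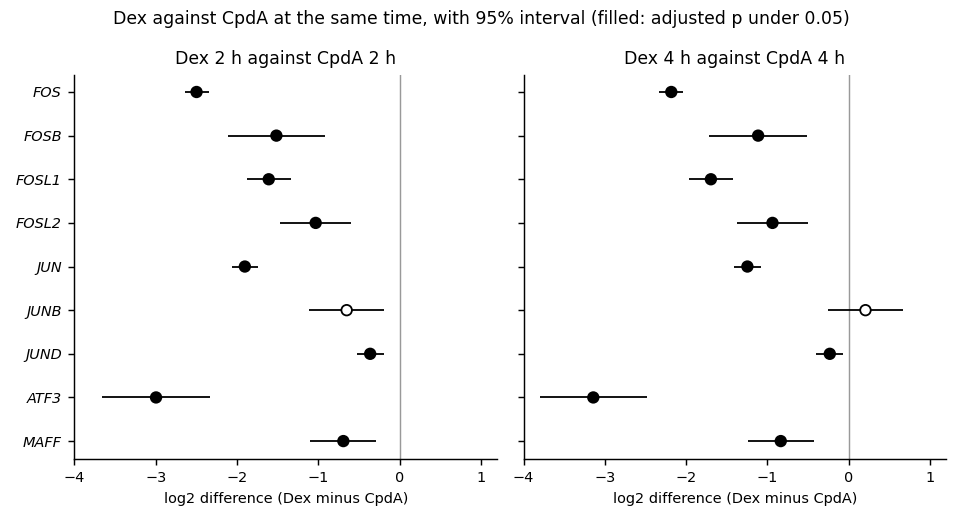
Log2 difference of each AP-1 gene between Dex and CpdA at 2 h and at 4 h (2 samples per group), with 95% intervals and filled circles where the adjusted p was under 0.05. All points lie below 0 except that of JUNB at 4 h, and ATF3 and FOS lie farthest from 0 at both times.

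The times were also compared within each ligand. With CpdA, all 9 genes were lower at 4 h than at 2 h, without overlap between the samples (66.4% of all genes tested did not overlap, in either direction), and 6 passed the test, when 7.2% of all genes tested were called lower and 12.4% in all. The log2 differences were -1.07 for ATF3 (SE 0.291, adjusted p = 0.0445), -0.88 for JUNB, -0.61 for JUN, -0.44 for FOSL1, -0.39 for FOS and -0.28 for JUND. With Dex, 3 genes passed, when 9.02% of all genes tested were called lower and 13.6% in all. ATF3 was lower at 4 h by 1.21 (adjusted p = 0.0265), MAFF by 0.73 (adjusted p = 0.0294) and FOSL1 by 0.52 (adjusted p = 0.0217). JUN and JUNB did not pass the test with Dex, with differences of 0.05 (interval -0.11 to 0.22) and -0.03 (interval -0.49 to 0.44). With any 1 CpdA sample left out, only JUN still passed between the CpdA times. Between the Dex times, ATF3, MAFF and FOSL1 passed only where Dex 4 h replicate 2 was the one left out. Fewer of all genes tested were likewise called in most of these fits. The log2 differences moved little, from -1.10 to -1.03 for ATF3 and -0.93 to -0.84 for JUNB with CpdA. With Dex they ran from -1.25 to -1.18 for ATF3, -0.80 to -0.66 for MAFF and -0.58 to -0.46 for FOSL1. In the fit on the 8 treated samples alone, 9 genes declined with CpdA and 4 with Dex, FOSL2 being the fourth (-0.56, adjusted p = 5.22e-04), when 15.5% and 16% of all genes tested were called.

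The difference between vehicle replicate 2, headed 4 h, and replicate 1, headed 2 h, had the size of these declines for several genes. For ATF3 it was -1.21, beside -1.21 with Dex and -1.07 with CpdA. MAFF showed -0.73 with vehicle, -0.73 with Dex and -0.58 with CpdA, and FOSL1 showed -0.46, -0.52 and -0.44. FOSL2 and FOSB were likewise lower in all 3. JUN and JUNB departed from this, since the vehicle samples differed by -0.24 and -0.84 while the Dex times differed by 0.05 and -0.03. The vehicle differences, 1 sample at each heading, were not tested. A comparison of each treatment with the vehicle sample of its own heading is the one against replicate 1 alone at 2 h and against replicate 2 alone at 4 h. On that reading the log2 fold changes with Dex at 2 h and 4 h were -1.66 and -1.73 for FOSL1 and -1.75 and -1.45 for JUN. They were -0.67 at both times for ATF3, -0.42 at both for MAFF, -0.46 and 0.35 for JUNB, and -0.34 and -0.10 for FOSL2. FOSB had -0.47 and -0.13, FOS 0.20 and 0.24, and JUND 0.02 and 0.08. With CpdA the values were 2.70 and 2.42 for FOS, 2.33 and 2.47 for ATF3, and 1.05 and 0.99 for FOSB. FOSL2 had 0.70 and 0.83, JUND 0.38 and 0.31, MAFF 0.27 and 0.42, and JUNB 0.20 and 0.15. JUN had 0.16 and -0.21 and FOSL1 -0.05 and -0.03. Each value rests on 1 vehicle sample, so no calls are counted on this reading.

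**Figure D4:**
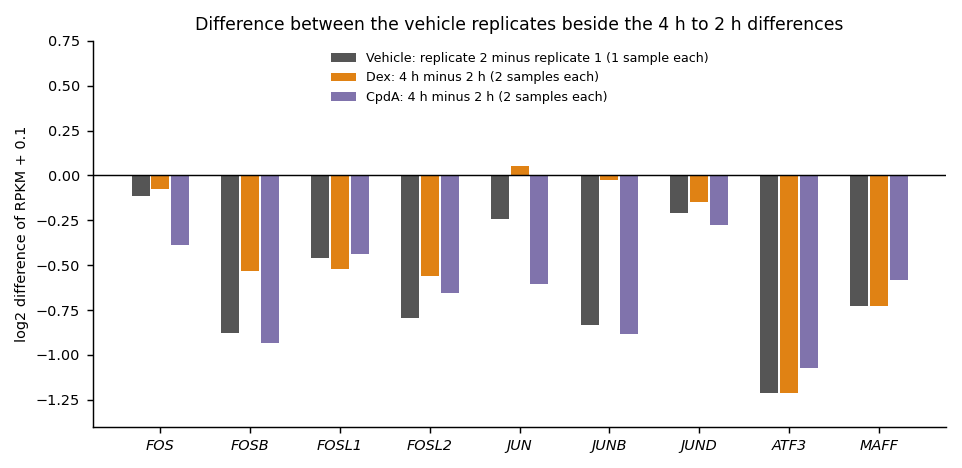
Log2 differences of each AP-1 gene between vehicle replicate 2 and replicate 1 (grey, 1 sample each), between Dex 4 h and Dex 2 h (orange, 2 samples each) and between CpdA 4 h and CpdA 2 h (purple, 2 samples each). The grey and orange bars are of like height for ATF3, MAFF and FOSL1, and JUN and JUNB have a grey bar well below 0 and an orange bar near 0.

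Summed over the Fos family, transcripts amounted to 374 ± 89.5 RPKM (SD, n = 2) with vehicle, 163 ± 7.95 RPKM at Dex 2 h and 113 ± 4.41 RPKM at Dex 4 h. The sums with CpdA were 465 ± 9.76 RPKM at 2 h and 334 ± 2.11 RPKM at 4 h. FOSL1 made up 88.1% and 90.2% of the family in the vehicle samples, 74.0% to 75.4% in the Dex samples and 79.7% to 82.1% in the CpdA samples. The mean shares of the other 3 genes were higher with both ligands than with vehicle. FOSL2 made up 9.80% with vehicle, 23.0% and 22.4% with Dex at 2 h and 4 h, and 16.5% and 14.5% with CpdA, while its own RPKM at Dex 2 h was between the vehicle values. FOS made up 0.420% with vehicle, 1.14% and 1.55% with Dex, and 2.35% and 2.49% with CpdA. For FOSB the shares were 0.591% with vehicle, 1.3% and 1.26% with Dex, and 1.35% and 0.962% with CpdA. With 2 samples against 2, an exact permutation test cannot give a p below 0.333, so none was run on these sums.

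The Jun family summed to 230 ± 34.9 RPKM with vehicle, 195 ± 6.95 and 182 ± 9.84 RPKM with Dex at 2 h and 4 h, and 312 ± 7.17 and 230 ± 3.13 RPKM with CpdA. JUN held 27.6% and 28.9% of it in the vehicle samples and 10.6% to 12.6% in the Dex samples, and JUND held 56.8% ± 2.88 with vehicle, 72.5% ± 0.515 after 2 h of Dex and 70.3% ± 0.754 after 4 h. The JUN share with CpdA was 25.2% ± 0.752 at 2 h and 22.4% ± 0.120 at 4 h. JUNB kept 11.9% to 17.8% of the family in all 10 samples.

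**Figure D5:**
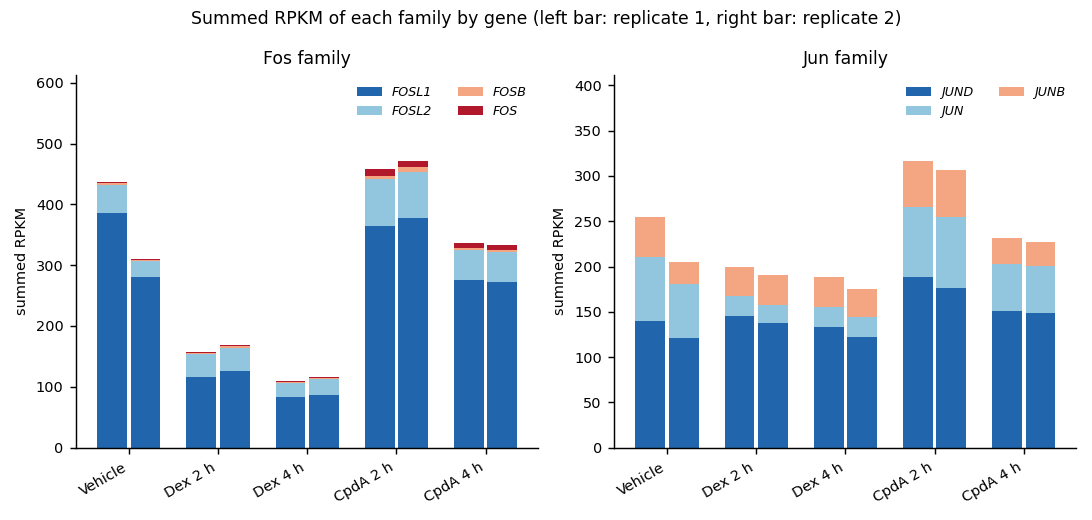
Summed RPKM of the Fos family (left) and the Jun family (right) in each sample, with the left bar of each group for replicate 1, the right bar for replicate 2 and colours for the genes. FOSL1 fills most of every Fos bar and the bars of the 4 Dex samples are the shortest, and in the Jun bars the JUN segment shrinks with Dex while JUND stays near its vehicle height.

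Over the 10 samples, the genes fell into patterns that can be described by Pearson's r of log2(RPKM + 0.1). Since the samples form 5 groups of 2, r reflects mainly the group means and is given as a description only. FOSL1 and JUN ran closest to each other (r = 0.971), while FOSB, FOSL2 and ATF3 formed a set with r from 0.954 to 0.976. JUNB was the least alike, with r from 0.373 (FOS) to 0.719 (JUND). Among all genes tested, those most like FOSL1 were HBEGF, which encodes an EGF-receptor ligand (r = 0.994), and VEGFA, an angiogenic growth factor (r = 0.993). IER3 and PDP1 were most like JUN (r = 0.991 and 0.989), RCAN1 and R3HDM2 most like ATF3 (0.984 and 0.979), and CHMP1B and FAM53C most like FOS (0.988 and 0.974). DUSP8, which encodes a MAPK phosphatase, and PAXIP1 were most like FOSL2 (0.986 and 0.981), MAP3K10 and RGAG4 most like FOSB (0.981 each), and the cholesterol synthesis genes HMGCS1 and HSD17B7 most like MAFF (0.994 and 0.988). For JUNB the closest were WSB1 and FBXO8 (0.956 and 0.949) and for JUND PITPNM1 and TMEM159 (0.966 and 0.957).

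Other bZIP genes listed, some of whose proteins can pair with AP-1 proteins, numbered 24, of which 18 were tested. Dex raised 2 and lowered 4 of the 18 at 2 h and raised 2 and lowered 6 at 4 h, when 10.3% and 27.4% of all genes tested were called. BATF, a Jun partner that lacks an activation domain and is best known from lymphocytes, was the only one that changed by over 2-fold with Dex. It measured 0.955 and 0.901 RPKM with vehicle, 7.23 and 7.33 RPKM at Dex 2 h, and 9.79 and 9.30 RPKM at Dex 4 h, a log2 fold change of 2.85 (SE 0.124, adjusted p = 7.51e-07) and 3.23 (SE 0.124, adjusted p = 1.66e-07). At CpdA 2 h and 4 h BATF measured 0.700 to 1.09 RPKM. CpdA raised 6 and lowered 1 of the 18 at 2 h and raised 7 and lowered 0 at 4 h, when 6.18% and 20.5% of all genes tested were called. DDIT3, the CHOP factor of the stress response, rose with CpdA from 27.4 and 26.3 RPKM to 54.6 and 51.6 RPKM at 2 h and 66.1 and 62.1 RPKM at 4 h (log2 fold changes 0.98 and 1.25), and it was lower with Dex (-0.41 and -0.25). The median log2 fold change of the list was -0.10 and -0.08 with Dex and 0.18 and 0.21 with CpdA, beside medians from -0.05 to -0.02 over all genes tested.

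Of 28 kinases and factors upstream of AP-1 26 were tested. Dex raised 2 and lowered 2 at 2 h and raised 7 and lowered 7 at 4 h, while CpdA raised 1 and lowered 1 at 2 h and raised 0 and lowered 6 at 4 h. Of all genes tested, 10.3% and 27.4% were called with Dex and 6.18% and 20.5% with CpdA. With CpdA the counts changed with the vehicle sample, from 1 higher and 0 lower against replicate 1 to 2 higher and 1 lower against replicate 2 at 2 h, and from 0 higher and 4 lower to 1 higher and 1 lower at 4 h. The list's medians ran from -0.07 to 0.03. Only MAP2K3, the kinase that activates p38 MAPK, changed by over 2-fold against vehicle, and only with Dex. It measured 72.9 and 77.2 RPKM with vehicle, 35.4 and 36.4 RPKM at Dex 2 h, and 28.3 and 26.2 RPKM at Dex 4 h (log2 fold changes -1.06 and -1.46, SE 0.0479 each, adjusted p = 9.20e-07 and 6.76e-08), and 68.4 to 70.6 RPKM with CpdA.

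Genes that restrain MAPK signalling or destabilise AP-1 transcripts and proteins changed in both directions. All 15 listed were tested. With Dex 6 rose and 3 fell at 2 h and 6 rose and 5 fell at 4 h, and with CpdA 7 rose and 3 fell at 2 h and 5 rose and 4 fell at 4 h. Of all genes tested, 10.3% and 27.4% were called with Dex and 6.18% and 20.5% with CpdA. DUSP1, the phosphatase that inactivates JNK and p38 MAPK, rose with both ligands, from 14.6 and 11.6 RPKM to 101.4 and 100.6 RPKM at Dex 2 h and to 90.8 and 86.5 RPKM at CpdA 2 h (log2 fold changes 2.95 and 2.76, SE 0.0850 each). At 4 h DUSP1 was at 122 and 125 RPKM with Dex and 46.8 and 47.4 RPKM with CpdA (log2 fold changes 3.24 and 1.85). ZFP36, whose product tristetraprolin destabilises AU-rich transcripts, rose by 2.80 on the log2 scale at both Dex times and by 0.95 and 0.70 with CpdA. Its relative ZFP36L2 rose with Dex (2.00 and 2.16) and was lower with CpdA (-0.45 and -0.38). SPRY4, a feedback inhibitor of receptor tyrosine kinase signalling, rose with Dex (1.65 and 1.15) and fell by 0.98 at CpdA 4 h. DUSP2 moved the opposite way, higher with CpdA (1.57 and 2.34) and lower with Dex (-0.57 and -1.31), at levels of 0.275 to 5.32 RPKM. DUSP8 passed the test at CpdA 2 h only (1.55, adjusted p = 0.0161).

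Genes known as AP-1 targets were mostly lower with Dex. Of 24 listed symbols 23 were in the files and 17 were tested, and with Dex 12 fell and 3 rose at either time, when 10.3% and 27.4% of all genes tested were called, with a median log2 fold change of -0.89 at 2 h and -1.32 at 4 h (all genes tested, -0.02 and -0.05). Against either vehicle sample alone the counts with Dex were 11 or 12 lower and 3 higher. Those that rose included PTGS2 (log2 fold change 0.93 at 2 h) and EDN1 (1.53), named after their values were seen, which encode cyclooxygenase-2 and endothelin-1. The largest decreases were those of cytokines and growth factors, several of them also known targets of NF-κB. IL6 measured 28.05 and 11.2 RPKM with vehicle, 1.29 and 1.40 RPKM at Dex 2 h, and 1.82 and 1.86 RPKM at Dex 4 h (log2 fold changes -3.63 and -3.20, adjusted p = 7.05e-05 and 7.80e-05). The log2 fold changes at 2 h and 4 h were -2.82 and -3.97 for CSF2, -2.58 and -3.91 for CCL2, -2.52 and -3.03 for HBEGF, -2.43 and -2.54 for CXCL8 and -2.13 and -2.95 for IL11. CCL2 was at 0.0238 to 0.299 RPKM with Dex, where the pseudocount of 0.1 holds down the size of the change.

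With CpdA the same list split. At 2 h 2 of 17 rose and 4 fell, and at 4 h 1 rose and 6 fell, when 6.18% and 20.5% of all genes tested were called, with medians of -0.01 and -0.32. IL11 rose from 10.2 and 7.80 RPKM to 31.3 and 31.4 RPKM at 2 h and 30.6 and 31.8 RPKM at 4 h (log2 fold changes 1.80 and 1.79, SE 0.104 each, adjusted p = 2.27e-05 and 1.46e-05). IL6 reached 59.5 and 56.5 RPKM at 2 h (1.70, adjusted p = 0.0158) and 21.97 and 19.6 RPKM at 4 h. CSF2 was lower with CpdA as with Dex (-1.42 at 2 h and -2.44 at 4 h). HBEGF and CXCL8 did not pass the test with CpdA, and their vehicle samples lay far apart (84.2 and 44.98 RPKM for HBEGF, 44.2 and 18.7 RPKM for CXCL8). The counts with CpdA changed with the vehicle sample, from 2 higher and 3 lower against replicate 1 to 6 higher and 4 lower against replicate 2 at 2 h, and from 1 higher and 11 lower to 3 higher and 4 lower at 4 h. The shares of all genes called in the fits on single vehicle samples are given above. Between the ligands, 2 of the 17 were higher and 11 lower with Dex than with CpdA at 2 h, and 3 were higher and 11 lower at 4 h. Of all genes tested, 6.18% were called lower and 13.7% in all at 2 h, and 18% lower and 33.4% in all at 4 h.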

How the data were processed

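The authors sequenced RNA from 10 samples (single-end reads of 50 bases), aligned with TopHat 2.0.13 and deposited RPKM per gene symbol from Partek Genomics Suite 6.6 with default settings. The submitters' processing notes name hg19. How transcripts were combined into symbols is not given in the sources used here. Read totals were not used here, and depth is implied from RPKM steps. The 12 ChIP samples were not analysed here. The authors call the replicates biological duplicates without saying how cultures were separated, and p-values measure only the spread between these samples.

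Groups came from the sample labels. Genes with at least 0.5 RPKM in at least 2 samples were kept (12713, all 9 AP-1 genes included, whose lowest value was 1.34 RPKM). log2(RPKM + 0.1) was modelled by group (5 groups, 10 samples) with limma 3.58.1 in R 4.3.3, eBayes using an abundance trend, two-sided, with Benjamini-Hochberg adjustment over all genes kept in each of 8 comparisons. A gene was called at an adjusted p under 0.05. The pseudocount understates changes of low genes. The fit was tested on simulated data. The named genes were the 9, up to 6 per list by the largest change over 2-fold against vehicle, and the 2 genes most like each member. The members and the 4 gene lists were chosen with earlier results of these data known. Alternatives were other pseudocounts, filters, scalings and variance models, a replicate block, only the 4 samples compared and each replicate left out. The fits on the 8 treated samples and the list counts against single vehicle samples were chosen after seeing the data. Positions and sequences came from GRCh37 with GENCODE release 44 lifted to it. No replicate pair of a group shared more than 1 nonzero value. The values of 1 listed gene are not reported here.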

Additional observations from a re-analysis of the deposited data

Results flagged for a closer look

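Levels at 2 h and at 4 h of one ligand differed by the direct test for 9 results. The difference tested is between treated samples only, so it cannot tell a change of ligand effect from a change with time in vehicle. The spread used in the test came from all 10 samples, the vehicle samples included. With Dex, the log2 level at 4 h was lower than that at 2 h for FOSL1 (-0.52, SE 0.119), ATF3 (-1.21, SE 0.291) and MAFF (-0.73, SE 0.179). With CpdA it was lower for FOS (-0.39), FOSL1 (-0.44), JUN (-0.61), JUNB (-0.88), JUND (-0.28) and ATF3 (-1.07). In each of these the 2 samples at 4 h lay below both samples at 2 h. That adds little, because the results were picked by the test on the same values. Between the CpdA times, 66.4% of all genes tested did not overlap in one direction or the other. The fits against the vehicle sample of the same heading (replicate 1 at 2 h, replicate 2 at 4 h) gave these log2 fold changes. With Dex they were -1.66 and -1.73 for FOSL1, -0.67 at both times for ATF3 and -0.42 at both times for MAFF. With CpdA they were 2.7 and 2.42 for FOS, -0.05 and -0.03 for FOSL1, and 0.16 and -0.21 for JUN. The others with CpdA were 0.20 and 0.15 for JUNB, 0.38 and 0.31 for JUND, and 2.33 and 2.47 for ATF3.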

How the results depend on the processing

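Over 9 genes and 8 comparisons, the calls of FOSL1 and JUN with Dex at both times, of ATF3 and MAFF at Dex 4 h, and of FOS and ATF3 with CpdA at both times held in each of 13 alternatives, whereas the FOS call at Dex 2 h held in 8 and the JUN call at CpdA 4 h in 11. A pseudocount of 0.01 changed 0 of 72 results and a pseudocount of 1 changed 2. With each replicate left out in turn, the number of AP-1 genes called ran from 2 to 7 at Dex 2 h, 4 to 7 at Dex 4 h, 3 to 9 at CpdA 2 h, 2 to 7 at CpdA 4 h, 6 to 7 for Dex against CpdA at 2 h, 6 to 8 at 4 h, and 0 to 3 for Dex 4 h against 2 h, and it was 1 each time for CpdA 4 h against 2 h, a lone sample being assumed to vary like the other groups. CpdA 2 h gave 3 calls with no filter and 3 with only the 4 samples compared. Dex 4 h against 2 h gave 0 with no filter and 1 without the abundance trend, and CpdA 4 h against 2 h gave 2 in each of these. Fewer of all genes tested were also called without a CpdA 2 h sample at CpdA 2 h, and without any CpdA sample for CpdA 4 h against 2 h. The causes were not tested.

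Direction turned in 20 fits, all of results that were not called on the 10 samples. Quantile normalization gave 0.003 for FOSB at Dex 2 h and 0.016 for FOS between the Dex times. Median scaling gave 0.006 for JUNB and 0.045 for JUND at Dex 4 h and 0.028 for JUNB between the Dex times. With single replicates left out, the log2 fold change at Dex 2 h ran from -0.469 to 0.409 for FOSB, -0.336 to 0.458 for FOSL2, -0.455 to 0.381 for JUNB, -0.670 to 0.542 for ATF3 and -0.418 to 0.309 for MAFF. At Dex 4 h it ran from -0.482 to 0.354 for JUNB and -0.128 to 0.079 for JUND, at CpdA 2 h from -0.053 to 0.406 for FOSL1, and at CpdA 4 h from -0.686 to 0.149 for JUNB and -0.308 to 0.420 for MAFF. Between the Dex times it ran from -0.007 to 0.108 for JUN and -0.089 to 0.036 for JUNB.

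In the fit with a replicate block, the number of genes called was 3 and 4 for Dex and 6 and 4 for CpdA at 2 h and 4 h, and 3 of 72 results changed sides of the threshold: JUN at CpdA 2 h (adjusted p = 0.048) and JUND at CpdA 4 h (0.013) passed, and FOSL1 between the CpdA times did not (0.051). The labels do not say whether same-numbered samples came from the same culture, so they were not paired. Their deviations from the group means had a mean correlation of 0.0544 over 10 pairs of groups (-0.0568 to 0.198). That value cannot show whether they shared a culture. Depth was not known from read totals, and estimated reads were fewest for FOS.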
